A study of Mus musculus with 2 samples.

Results

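The 10 genes described here encode cytokines of DC and the receptor chain that carries IL-15 on their surface: Il12b, Il27, Ebi3, Il15, Il15ra, Il1b, Il18, Il6, Tnf and Tgfb1. They were taken by symbol from the 32285 genes in the count tables, and all 10 were found there once. Splenic cells were enriched for CD11c and live CD45.2+ CD11c+ cells of each genotype were sorted by FACS, then measured by droplet scRNA-seq with a 3′ kit. There was 1 library of WT and 1 library of H2-Aa cit/cit cells (mutant cells in what follows), each pooled from 3 naive female mice aged 4 months. The cit allele is a splice mutation in an intron of H2-Aa, the gene of the MHC-II alpha chain, and mice homozygous for it lack MHC-II on all cells, not on DC alone. With 1 library per genotype no replicate error exists, so no difference between genotypes was tested. All intervals in brackets are 95% intervals that cover counting error only, and UMIs of 1 cell are not independent of each other.

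DC instruct T and NK cells through the antigen they present and through the cytokines they make. IL-12 and IL-23 share the subunit encoded by Il12b, which pairs with the product of Il12a or Il23a, and IL-12 drives IFN-γ production by T and NK cells. IL-27 is a pair of the products of Il27 and Ebi3. IL-15 is rarely released alone: IL-15Rα, the product of Il15ra, binds it inside the producing cell and shows it at the surface to NK cells and memory CD8 T cells that carry the IL-2 receptor β and γ chains, which is called trans-presentation. IL-1β and IL-18 are made as precursors that inflammasome caspases cut, TNF and IL-6 are inflammatory cytokines, and TGF-β1 is a latent cytokine that restrains T cells. Mature DC, which carry CCR7 and leave for T cell zones, are known as a main source of IL-12 and of IL-15 on its receptor, above all those of the cDC1 lineage.

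The WT library held 7814 cells with 51020804 UMIs and the mutant library 11525 cells with 72652201 UMIs, at medians of 5492 and 5633 UMIs per cell. Levels are given as CPM, the UMIs of a gene scaled to the UMIs of the same cells (counts per 1e6). H2-Aa itself stood at 5410 CPM in WT against 66.2 CPM in mutant cells. The DC genes Flt3, Itgax and Zbtb46 were at 422, 199 and 273 CPM in WT and at 333, 224 and 265 CPM in mutant cells. The libraries shared 31 cell barcodes. Cells were gated on UMIs of marker lists into 16 classes. Cells with many UMIs of the mature DC list (Ccr7, Fscn1, Socs2, Cacnb3, Ccl22, Nudt17, Anxa3) were split in 3. Mature cells with cDC1 genes (242 WT and 26 mutant cells) held at least 2 UMIs of cDC1 genes such as Xcr1, Clec9a and Cadm1, and more than of the cDC2 gene Sirpa. Of the others, those with a Sirpa UMI were called mature with Sirpa (781 and 539 cells), and the rest mature with neither marker (792 and 536 cells). The rest could still hold a UMI of a cDC1 gene. The cDC1 list stood there at 29.2 and 14.7 CPM, against 28.0 and 21.0 CPM in mature cells with Sirpa and 541 and 447 CPM in those with cDC1 genes. Together the 3 classes made up 1815 WT cells, or 23.2% of cells, and 1101 mutant cells, or 9.55%. The other large classes were cDC1-like cells (555 and 598) and 4 kinds of cDC2-like cells that did not pass the mature gate: Ccr2+ (352 and 969), Ffar2+ (1005 and 2297), low in ribosomal UMIs (1650 and 1919) and the remaining ones (883 and 2512). The mature list still stood at 76.6 and 38.2 CPM, 143 and 86 CPM, 213.5 and 120.8 CPM, and 178 and 91.3 CPM in WT and mutant cells of these 4. When cells were clustered without the 10 genes, 11.2% of WT and 6.93% of mutant low-ribosomal cells lay in clusters of mature cells with Sirpa. The part of this in differences outside the mature classes was not tested.

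The promoters of these genes were compared in the 250 bases before the RefSeq start on GRCm38.p6, which were at hand for 8 of the 10 genes at 9 starts. They are shown for Il12b, Tnf, Il6 and Il15ra, whose UMIs lay mostly in mature WT cells, and for Tgfb1, which was lowest there. Capitals mark matches on either strand to a TATA box (TATAAA), an AP-1 site (TGANTCA), a C/EBP site (TTGCNNAA), an ISRE core (GAAANNGAA), an ETS-IRF core (GGAANNGAA) or the kappa-B consensus. Each sequence reads 5′ to 3′ on the strand of its gene.
Il12b, chr11:44399813-44400062, plus strand: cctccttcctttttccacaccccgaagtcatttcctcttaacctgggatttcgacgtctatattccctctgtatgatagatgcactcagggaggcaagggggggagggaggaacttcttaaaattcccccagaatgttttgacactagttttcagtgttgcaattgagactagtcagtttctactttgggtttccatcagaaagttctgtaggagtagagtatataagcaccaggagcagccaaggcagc
Tnf, chr17:35202008-35202257, minus strand: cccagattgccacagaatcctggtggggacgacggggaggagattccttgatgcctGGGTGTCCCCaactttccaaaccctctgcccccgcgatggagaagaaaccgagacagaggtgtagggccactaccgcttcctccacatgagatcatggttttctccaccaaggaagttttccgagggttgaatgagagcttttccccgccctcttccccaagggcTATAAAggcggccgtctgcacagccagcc
Il6, chr5:30012864-30013113, plus strand: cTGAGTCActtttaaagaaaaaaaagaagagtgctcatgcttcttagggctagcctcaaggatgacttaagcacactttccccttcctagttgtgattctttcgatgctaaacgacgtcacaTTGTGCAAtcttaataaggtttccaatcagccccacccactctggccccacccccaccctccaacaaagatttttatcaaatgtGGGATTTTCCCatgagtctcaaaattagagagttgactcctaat
Il15ra, first of its starts, chr2:11705043-11705292, plus strand: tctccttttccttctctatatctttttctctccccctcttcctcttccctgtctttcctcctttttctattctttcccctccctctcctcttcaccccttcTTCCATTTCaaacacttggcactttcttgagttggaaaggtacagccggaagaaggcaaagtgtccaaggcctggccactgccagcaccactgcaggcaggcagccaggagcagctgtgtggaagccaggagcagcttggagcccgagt
Tgfb1, chr7:25686752-25687001, plus strand: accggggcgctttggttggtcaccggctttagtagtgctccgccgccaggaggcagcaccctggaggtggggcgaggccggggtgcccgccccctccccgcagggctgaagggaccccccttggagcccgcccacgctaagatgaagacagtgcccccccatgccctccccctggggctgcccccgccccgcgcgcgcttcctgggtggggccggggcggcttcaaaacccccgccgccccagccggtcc

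The Tnf window held a TATA box 29 to 24 bases and a kappa-B match 194 to 185 bases before the start. In the Il6 window a kappa-B match lay 44 to 34 bases, a C/EBP site 128 to 121 bases and an AP-1 site 249 to 243 bases before the start. The first Il15ra start had an ISRE core 149 to 141 bases before it, on the opposite strand, and its other start an AP-1 site 30 to 24 bases before it. Of the windows not shown, that of Ebi3 held a kappa-B match 44 to 34 bases, and that of Il1b a TATA box 31 to 26 bases, before the start. Il18 had a TATA box match only far upstream, at 175 to 170 bases on the opposite strand. No searched letters were found in the windows of Il12b and Tgfb1, which differed in composition, with 46% G or C and 3 CpG in Il12b against 75.2% and 21 CpG in Tgfb1. Such matches are common: among 32841 mouse starts the TATA box was found in 12.4%, the C/EBP site in 9.57%, the kappa-B consensus in 8.87%, the ISRE core in 7.13%, the ETS-IRF core in 6.99% and the AP-1 site in 6.75%.

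In the GENCODE vM21 annotation of GRCm38, Il12b lies at chr11:44400063-44414033, Il15 at chr8:82331632-82403222, Il15ra at chr2:11705290-11734317, Il6 at chr5:30013114-30019981, Tgfb1 at chr7:25687002-25705077 and Tnf at chr17:35199381-35202007, none overlapping another gene. Il27 (chr7:126589010-126594941) overlaps Apobr, Ebi3 (chr17:55952640-55957022) overlaps Gm16712, Il1b (chr2:129364570-129371139) overlaps Il1bos, and Il18 (chr9:50554827-50581840) overlaps Bco2 and Tex12, each on the other strand. How strand was used in counting is not given in the sources used here, so reads of these 4 genes and of their partners may not be separable.

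Over all cells, Il12b, Il15 and Il15ra were lower in the mutant library and Ebi3, Il18 and Tgfb1 higher. Il12b had 3120 UMIs (61.2 CPM) in WT and 939 UMIs (12.9 CPM) in mutant cells, a log2 ratio of -2.24 [-2.35, -2.14]. Il15 had 5871 and 3148 UMIs (115 and 43.3 CPM, log2 ratio -1.41 [-1.47, -1.35]), and Il15ra 4028 and 1756 UMIs (79.0 and 24.2 CPM, -1.71 [-1.79, -1.63]). These were 3 of the 5 listed genes that reached 50 CPM in a library, and each was more than 2-fold lower, as were 3.21% of all 3953 genes at that level. Tnf was at 47.2 and 35.6 CPM (-0.40 [-0.48, -0.32]) and Il27 at 7.21 and 4.68 CPM (-0.62 [-0.84, -0.41]).

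The other genes differed less. Il1b, with 5165 and 7200 UMIs, was at 101 and 99.1 CPM, and its interval held 0 (-0.03 [-0.08, 0.02]). Il6 was scarce, at 105 and 127 UMIs (-0.24 [-0.62, 0.15]). Ebi3 was at 28.8 and 38.3 CPM (0.41 [0.32, 0.51]), Il18 at 39.2 and 44.9 CPM (0.20 [0.12, 0.28]) and Tgfb1, the most counted of the 10 genes with 10334 and 18140 UMIs, at 202 and 250 CPM (0.30 [0.27, 0.34]).

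**Figure D1:**
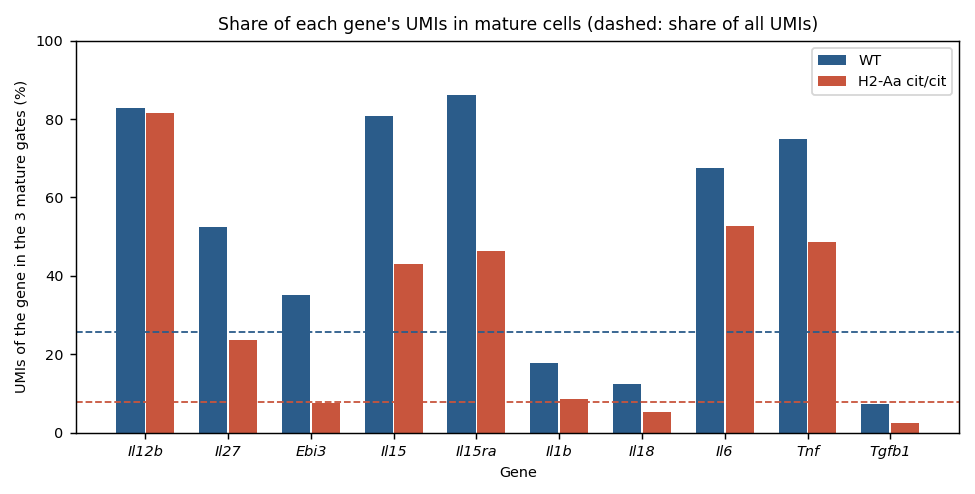
Bars give the percent of the UMIs of each gene that lay in cells of the 3 mature classes, in each library, and dashed lines the percent of all UMIs in those cells (25.6% in WT, 7.82% in H2-Aa cit/cit). Il12b, Il15, Il15ra, Il6 and Tnf stand well above the line of their library, while Tgfb1 and Il18 lie below it in both.

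Where these UMIs lay set the genes apart. Mature cells held 25.6% of all WT UMIs but 86.2% of those of Il15ra, 82.8% of Il12b, 80.9% of Il15, 74.9% of Tnf and 67.6% of Il6. In mutant cells they held 7.82% of all UMIs, 81.7% of those of Il12b, 52.8% of Il6, 48.5% of Tnf, 46.4% of Il15ra and 43.0% of Il15 UMIs. Il27 followed with 52.5% in WT and 23.5% in mutant cells. Ebi3 was spread over all classes, with 35.2% and 7.62% of its UMIs in mature cells, above the share of all UMIs in WT and close to it in mutant cells. Il18 (12.4% and 5.12%) and Tgfb1 (7.31% and 2.41%) lay below the share of all UMIs in both libraries, and Il1b (17.8% and 8.5%) in WT only. Since the libraries held such different shares of mature cells, the values are given next class by class.

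**Figure D2:**
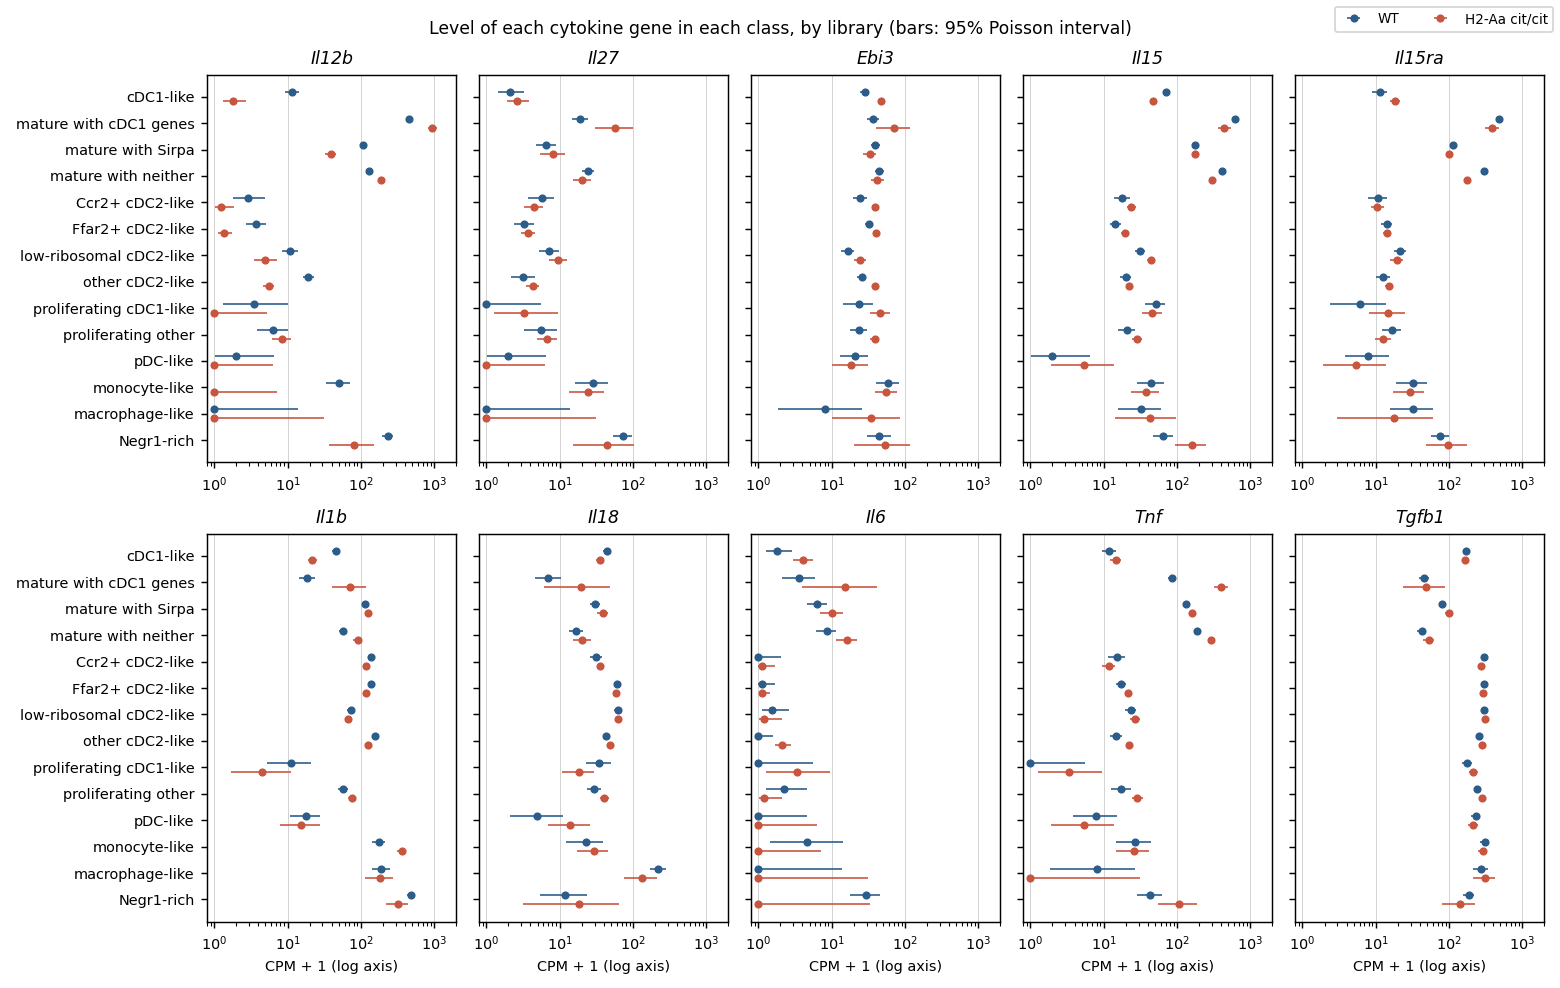
Each panel plots the CPM of a gene plus 1, on a log axis, in 14 classes of WT (blue) and H2-Aa cit/cit cells (red), with 95% Poisson intervals as bars. Il12b, Il15, Il15ra and Tnf are highest in mature classes, Il1b in Negr1-rich or monocyte-like cells, Il18 in macrophage-like cells, and Tgfb1 is lowest in the mature classes.

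Il12b was highest in mature cells with cDC1 genes. In WT cells it reached 449 CPM [426, 473] in mature cells with cDC1 genes, against 130 CPM in mature cells with neither marker and 107 CPM in those with Sirpa, and no intervals of these 3 overlapped. Cells of the cDC1-like class, which did not pass the mature gate, had 10.7 CPM, 42.1-fold less than mature cells with cDC1 genes. Ffar2+ and Ccr2+ cDC2-like cells had 2.73 and 1.93 CPM, near the 0.99 CPM (1 UMI) of pDC-like cells. In mutant cells the order of the mature classes was like that of WT at the top, with 945 CPM in mature cells with cDC1 genes, but that value rests on 26 cells, of which 7 had any Il12b UMI. There, mature cells with neither marker had 189 CPM and those with Sirpa 37.9 CPM.

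Mature cells with cDC1 genes were 3.10% of WT and 0.226% of mutant cells. They held 45.4% of the Il12b UMIs of WT (1417 of 3120) and 21.4% of those of mutant cells (201 of 939). Without them, the log2 ratio of Il12b over the remaining cells was -1.80 [-1.93, -1.68], and without all 3 mature classes it was -2.46 [-2.72, -2.21], from 14.2 to 2.57 CPM. Of the 537 WT UMIs left outside the mature classes, 149 lay in Negr1-rich cells, a small class described at the end, 62 in cells passing gates of several lineages and 114 in a single cell, and without those 2 classes and the highest cell of each library the ratio was -1.47 [-1.79, -1.15]. With the mature cells taken from clusters, which were made without the 10 genes, 364 WT and 416 mutant UMIs lay outside them (9.68 and 6.19 CPM, -0.65 [-0.85, -0.44]). All mutant cells outside the 3 gated mature classes held 172 UMIs, so most of the 416 lay in cells that passed the mature gate. Of the gated mature cells with Sirpa, 8.58% in WT and 16.7% in the mutant library lay in Ffar2+ clusters. The size of the difference outside mature cells thus depended on the classing and on few cells. With every class at the same share in both libraries, the sign depended on the weights, at 0.24 [0.09, 0.38] with the mean of the shares, -0.58 [-0.70, -0.45] with mutant shares and -0.88 with mean shares without the 3 highest cells of each library. The 26 mature mutant cells with cDC1 genes contribute most to the first of these sums. In mature cells outside the cDC1 group, Il12b was at 118 and 103 CPM (-0.18 [-0.33, -0.04]). Without the highest cell of each library this ratio was -0.56 [-0.73, -0.39], and without the 3 highest -0.50 [-0.69, -0.32]. Over the clusters of such cells, with all cells kept, Il12b was at 73.8 and 65.7 CPM (-0.17 [-0.36, 0.03]).

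Il12b also lay in few cells. After every cell had been thinned to 1500 UMIs and shallower cells left out, 3.15% of WT and 0.823% of mutant cells had a UMI of it, against 1.03% (1 of 97) and 0 of 99 pDC-like cells, at median depths before thinning of 10080 and 7079 UMIs. In mature cells with cDC1 genes the share was 24.0% (58 of 242) in WT and 23.1% (6 of 26) in mutant cells, and in mature cells outside that group 7.44% and 5.92%. The 10 highest cells held 26.2% of all Il12b UMIs in WT and 51.1% in mutant cells. In the latter library a single cell, among the mature cells with neither marker, held 170 UMIs (18.1% of the total), followed by cells with 102 and 64 UMIs, both in the group with cDC1 genes.

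These cells move the values. Without the highest cell of each library, Il12b was at a log2 ratio of -2.48 over all cells, and without the 3 highest at -2.73. In mature cells with neither marker it was 0.54 [0.36, 0.72] with all cells but -0.06 [-0.28, 0.15] without the highest cell of each library. In those with Sirpa it was -1.50 with all cells and -1.58 [-1.92, -1.25] without the highest, the WT cell of 105 UMIs. The clusters did not separate these 2 classes, and over them the value was the -0.17 given above. In the remaining cDC2-like cells the WT level of 18.2 CPM came from 119 UMIs of which 114 were in 1 cell, which also held 15 UMIs of the cDC1 list and 22 of the mature list, and without the highest cell of each library the ratio turned from -2.01 to 2.09. In cDC1-like cells Il12b was at 67 UMIs in 7 of 555 WT cells, 42 of them in 1 cell, and at 7 UMIs in 2 of 598 mutant cells (-3.70 [-5.06, -2.57]), against 75 and 28 UMIs over the cDC1-like clusters (-1.96 [-2.64, -1.31]). In Ccr2+ and Ffar2+ cells, with 7 and 2 and with 23 and 6 UMIs, the ratios of -2.99 and -2.97 turned to 1.95 and 1.42 when cells were classed by clusters. These clusters held 11 and 101 and 36 and 220 UMIs. All mutant cells outside the mature gates held 172, so the Ffar2+ clusters drew on cells that passed the mature gate. In the Ccr2+ clusters lay 1 mutant mature cell with cDC1 genes and 2 with Sirpa, and their part was not tested.

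**Figure D3:**
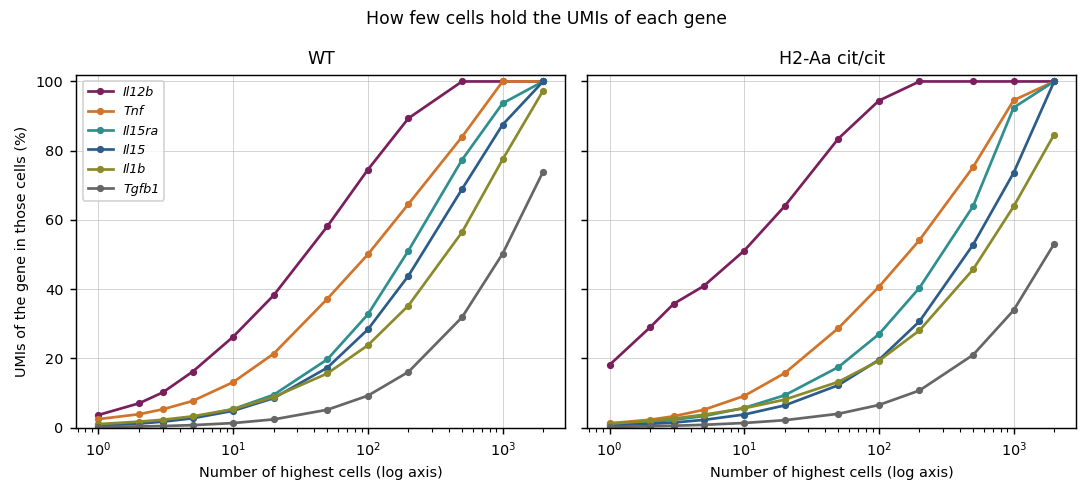
Lines give the percent of all UMIs of a gene held by the given number of cells with the most UMIs of it (log axis), for WT on the left and H2-Aa cit/cit on the right. Of the 6 genes drawn, Il12b rises fastest in both, to 26.2% and 51.1% at 10 cells, and Tgfb1 slowest. Il6, with few UMIs, is not drawn and was at 27.6% and 26.8% at 10 cells.

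The partners of the Il12b product were nearly absent. Il12a, the other chain of IL-12, had 8 UMIs in WT and 2 in mutant cells, and Il23a, the other chain of IL-23, 21 and 27 UMIs. Of the 2 genes of IL-27, Il27 was highest in WT in Negr1-rich cells (71.6 CPM), then in monocyte-like cells (27.2 CPM) and mature cells with neither marker (23.4 CPM), the last 2 with intervals that overlapped. It was at or below 6.24 CPM in the cDC2-like classes of WT. No class with at least 50 cells per library gave a ratio for Il27 whose interval excluded 0. Ebi3 was spread over the classes, from 15.6 to 58.0 CPM in WT outside macrophage-like and NK-like cells (2 and 1 UMIs), and the intervals of most neighbours in this order overlapped. It was higher in mutant cells in the cDC1-like class (27.2 and 46.6 CPM, 0.78 [0.51, 1.04]) and in all 4 cDC2-like classes (0.71 in Ccr2+, 0.37 in Ffar2+, 0.59 in low-ribosomal and 0.63 in the remaining cells), with intervals above 0. By clusters the low-ribosomal (0.35 [-0.08, 0.79]) and remaining cells (0.17 [-0.42, 0.77]) had intervals that held 0. A cluster of 2 WT and 754 mutant cells, 50.7% of them in the remaining gated class, was counted with the Ffar2+ clusters. In mature cells outside the cDC1 group the interval of Ebi3 held 0 (-0.18 [-0.43, 0.07]), and over their clusters it was at -0.33 [-0.61, -0.06].

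Few cells had both chains of IL-27. After thinning, 5 WT cells had a UMI of Il27 and Ebi3, beside 2.88 cells from the product of their shares, and 5 mutant cells beside 4.30. Il12b and Ebi3 were found together in 15 WT cells beside 8.79, and in 6 mutant cells beside 4.41. At these counts no departure from the product can be read.

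Il15 and Il15ra followed each other over the classes. Il15 in WT fell in the order mature with cDC1 genes (622 CPM [594, 650]), mature with neither (408 CPM), mature with Sirpa (174 CPM) and cDC1-like cells (70.9 CPM), then to between 13.4 and 30.4 CPM in the 4 cDC2-like classes. Il15ra had the same top 3, at 483 CPM [459, 508], 297 CPM and 112 CPM, but cDC1-like cells had 10.4 CPM, within the range of 9.65 to 20.4 CPM of the cDC2-like classes. The intervals of the top 3 did not overlap for either gene. In mutant cells the same 3 classes led, with Il15 at 442 CPM [357, 541], 302 CPM and 175 CPM, and Il15ra at 390 CPM [311, 484], 177 CPM and 100 CPM. Il15 was at 0.99 CPM (1 UMI) in WT and 4.33 CPM (3 UMIs) in mutant pDC-like cells.

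Unlike Il12b, both genes were found in most mature cells with cDC1 genes. In WT, 88.4% of these 242 cells had an Il15 UMI and 86.0% an Il15ra UMI, and the median cell stood at 574 CPM of Il15 and 461 CPM of Il15ra, with quartiles of 266 and 854 CPM for Il15 and of 166 and 712 CPM for Il15ra. Of the 26 mutant cells 17 had an Il15 UMI, at a median of 211 CPM, and 16 an Il15ra UMI, at a median of 284 CPM. These values are not of like cells. The mutant cells were shallower, with a median of 7222 UMIs against 12410 in WT. By clusters, 12 of the 26 mutant cells but 204 of the 242 WT cells lay in the cluster of mature cells with cDC1 genes. Thinned to 1500 UMIs, 57.4% of the WT cells had a UMI of Il15 and 48.4% of Il15ra, against 0 of 97 and 2.06% of pDC-like cells. The highest single cell held 0.596% of all Il15 UMIs in WT and 0.699% in mutant cells, so no cell carried the totals.

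Over all cells, 31.0% [27.6, 34.6] of WT cells with an Il15 UMI also had one of Il15ra after thinning, against 4.76% [4.25, 5.31] of the other cells, and in mutant cells the shares were 12.6% [10.2, 15.4] and 2.76% [2.45, 3.10]. That made 220 WT cells with both, beside 52.4 from the product of the shares, and 82 mutant cells beside 21.9. Much of this lay between classes. Within WT mature cells with cDC1 genes 77 cells had both, beside 67.2 (55.4% against 38.8%), and within mature cells with Sirpa 26 beside 17.2 in WT and 22 beside 12.4 in mutant cells. In mature cells with neither marker 108 WT cells had both, beside 66.3, and 36 mutant cells beside 30.1. All cells were thinned to 1 depth for these counts. Whether cells with more mature genes set the shares within a class was not tested.

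Within the mature classes, the difference of Il15 and Il15ra between the libraries was smaller than over all cells and depended on the class. In mature cells with Sirpa, Il15 was at 174 and 175 CPM (0.00 [-0.15, 0.16]) and Il15ra at 112 and 100 CPM (-0.16 [-0.36, 0.04]). In those with neither marker, Il15 was at 408 and 302 CPM (-0.44 [-0.56, -0.31]) and Il15ra at 297 and 177 CPM (-0.75 [-0.91, -0.59]). Of the WT cells of this class 22.6% lay in the cluster of mature cells with cDC1 genes when cells were clustered without the 10 genes, against 1.49% of the mutant cells, and their part in these ratios was not tested. Over both of these classes, Il15 stood at -0.29 [-0.39, -0.19] and Il15ra at -0.56 [-0.68, -0.43]. Over the clusters of mature cells with Sirpa (1442 WT and 1128 mutant cells), Il15 was at 187 and 225 CPM (0.27 [0.16, 0.38]) and Il15ra at 115 and 124 CPM (0.11 [-0.04, 0.26]). The cluster of mature cells with cDC1 genes held 461 WT and 24 mutant cells, with Il15 at 620 and 674 CPM and Il15ra at 485 and 565 CPM. The sign of both ratios in mature cells outside the cDC1 group thus turned with the way cells were classed.

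Outside the mature classes the libraries were close. Without those 3 classes, Il15 was at 29.6 and 26.8 CPM (-0.14 [-0.25, -0.03]) and Il15ra at 14.6 and 14.1 CPM (-0.06 [-0.21, 0.10]). With equal class shares in both libraries the ratios were -0.21 [-0.29, -0.13] for Il15 and -0.31 [-0.42, -0.19] for Il15ra. These sums include the 26 mature mutant cells with cDC1 genes. With equal shares of clusters in place of gated classes, both ratios turned to above 0. Il15 was higher in mutant cells in 3 of the 4 cDC2-like classes, with 0.44 [0.02, 0.89] in Ccr2+, 0.45 [0.14, 0.78] in Ffar2+ and 0.51 [0.21, 0.81] in low-ribosomal cells, at levels of 13.4 to 30.4 CPM in WT. Over the Ffar2+ clusters it was at 0.16 [-0.06, 0.39], an interval that held 0.

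In cDC1-like cells Il15 was lower (70.9 and 46.4 CPM, -0.61 [-0.81, -0.41]) and Il15ra higher (10.4 and 17.2 CPM, 0.73 [0.30, 1.18]), and over the cDC1-like clusters the ratios were -0.67 and 0.87. Under 7 alternatives of scaling, classing or cells left out, Il15 lay between -0.67 and -0.38 and Il15ra between 0.07 and 0.91. For both genes the smallest difference among these lay outside the counting interval. The libraries were spread differently over the cDC1-like clusters. One of them, with 587 CPM of the mature list and a median of 34.3% ribosomal UMIs, held 301 WT and 53 mutant cells, and the other, with 43.1 CPM of that list, 396 and 689 cells. Of the gated cDC1-like cells, 29 in WT (5.22%) and none in the mutant library lay in the cluster of mature cells with cDC1 genes. What part this has in the differences of Il12b, Il15, Il15ra, Ebi3 and Il1b in cDC1-like cells was not tested.

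**Figure D4:**
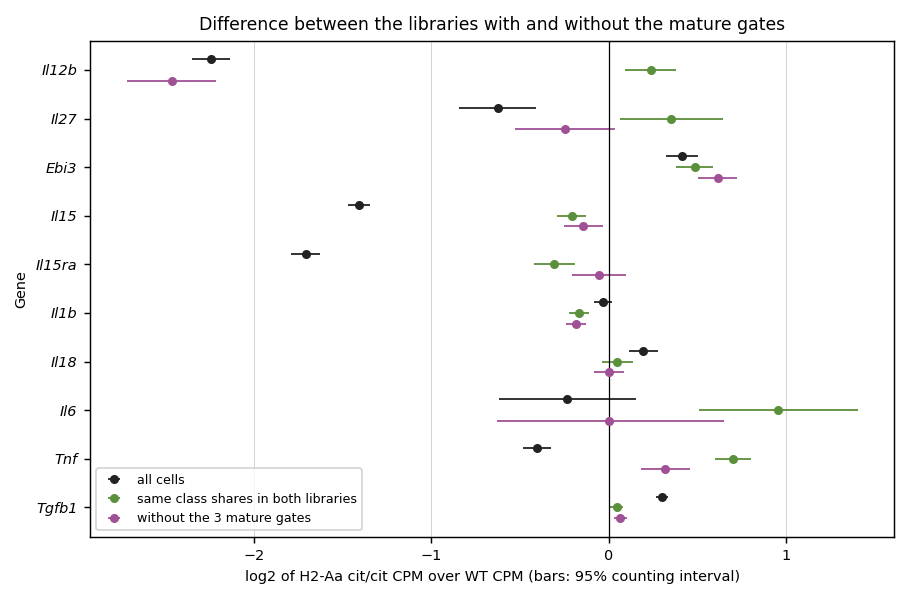
Points give the log2 ratio of H2-Aa cit/cit to WT CPM of each gene over all cells (black), with each class at the same share in both libraries (green) and without the 3 mature classes (purple), with bars for 95% counting intervals. Il15 and Il15ra move from -1.41 and -1.71 to near 0 without the mature classes, while Il12b is at -2.46 there, and at -0.65 when mature cells are taken from clusters. Cells that passed the mature gate are among those behind the -0.65. The green values of Il15 and Il15ra, below 0 here, turned to above 0 with clusters in place of gated classes.

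Tnf and Il6 were also high in mature cells, in WT less so in those with cDC1 genes. In WT, Tnf was at 184 CPM in mature cells with neither marker, 130 CPM in those with Sirpa and 85.3 CPM in those with cDC1 genes, with no overlap of intervals, and at 22.4 CPM or less in the cDC2-like classes. It was higher in mutant than in WT cells in mature cells with Sirpa (130 and 158 CPM, 0.28 [0.11, 0.45]) and with neither marker (184 and 287 CPM, 0.64 [0.50, 0.79]), while over all cells it was lower. With equal class shares its ratio was 0.70 with the mean of the shares and 0.47 with mutant shares, and without the mature classes 0.32 [0.18, 0.46]. The sums at equal class shares include the 26 mature mutant cells with cDC1 genes. Mature cells with cDC1 genes had 400 CPM of Tnf in mutant cells, from 85 UMIs in 8 of 26 cells, the highest of the 3 mature classes there. By clusters this order was the other way. The mutant level was 159 CPM (35 UMIs over 24 cells) in the cluster with cDC1 genes and 227 CPM in those with Sirpa. Over the latter clusters the libraries were at 185 and 227 CPM (0.30 [0.19, 0.41]). In Ccr2+ cells the ratio of -0.39 [-0.91, 0.13] was 0.62 [0.23, 1.02] by clusters, and in cDC1-like cells that of 0.31 [-0.13, 0.77] was 1.73 [1.11, 2.40]. Tnf UMIs lay in few cells as well, with 45.6% of them in the top 1% of WT cells and 43.3% in the top 1% of mutant cells.

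Il6 was at 7.52 CPM in WT mature cells with neither marker and 5.38 CPM in those with Sirpa, with intervals that overlapped, and at or below 0.55 CPM in the cDC2-like classes. In mutant cells these were 15.1 and 9.06 CPM, and over both mature classes 63 WT and 64 mutant UMIs gave 0.88 [0.36, 1.41]. In cDC1-like cells Il6 had 5 UMIs in WT and 26 in mutant cells (1.94 [0.54, 3.68]). The remaining cDC2-like cells held 0 UMIs in WT and 20 in mutant cells (1.13 CPM), which gives no ratio. By clusters the remaining cells held 0 in both libraries. With equal class shares the ratio of Il6 was 0.957 [0.509, 1.405], against -0.24 over all cells. That sum includes the mature mutant cells with cDC1 genes, which had 3 Il6 UMIs. After thinning, 7 WT cells had both Tnf and Il6, beside 0.99 from the product of the shares, and 8 mutant cells beside 1.18. Within mature cells outside the cDC1 group these were 6 beside 1.53 and 6 beside 2.53, counts too low to read a departure from.

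Most UMIs of Il1b, Il18 and Tgfb1 lay outside the mature classes. Il1b was not low in all mature cells, with 113 CPM in WT and 124 CPM in mutant mature cells with Sirpa. The remaining, Ccr2+ and Ffar2+ cDC2-like cells of the mutant library had 123.8, 118.5 and 116.1 CPM. Il1b in WT was at 154 CPM in the remaining cDC2-like, 138 CPM in Ffar2+ and 136 CPM in Ccr2+ cells, and at 71.5 CPM in low-ribosomal cells. The intervals of the remaining, Ffar2+ and Ccr2+ cells overlapped from one class to the next. It was slightly lower in mutant cells in 3 of these classes (-0.19 [-0.35, -0.04] in Ccr2+, -0.24 [-0.35, -0.14] in Ffar2+ and -0.31 [-0.42, -0.20] in the remaining cells, where it was -0.06 [-0.38, 0.26] by clusters), and lower in cDC1-like cells (44.8 and 20.7 CPM, -1.11 [-1.39, -0.83], and -0.65 [-0.92, -0.38] by clusters). It was higher in mature cells with neither marker (56.1 and 89.9 CPM, 0.68 [0.41, 0.95]). Over the clusters of mature cells with Sirpa, which held most of that class, it was at 94.0 and 100 CPM (0.09 [-0.07, 0.26]). Of the cells with neither marker, 22.6% in WT and 1.49% in the mutant library lay in the cluster with cDC1 genes. WT Il1b was at 26.5 CPM there, and the part of this in the difference was not tested. Il1b was also higher in monocyte-like cells (174 and 360 CPM, 1.05 [0.70, 1.41]). In that class 3.27% of all genes with at least 50 CPM were more than 2-fold different. The monocyte-like ratio was -0.03 when cells were assigned by their highest marker score. In cDC1-like cells, the summed monocyte list stood at 198 CPM in WT against 125 CPM in mutant cells, and its part in the Il1b difference was not tested.

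Il18 was highest in macrophage-like cells, at 221 CPM in WT and 132 CPM in mutant cells, with intervals that overlapped. It was next at 60.9 CPM in low-ribosomal and 59.8 CPM in Ffar2+ cDC2-like cells of WT, and no cDC2-like class outside the mature classes had a ratio whose interval excluded 0. In cDC1-like cells it was at 43.3 and 34.1 CPM (-0.34 [-0.59, -0.10]) and in mature cells with Sirpa at 29.1 and 37.9 CPM (0.38 [0.02, 0.73]). Over the clusters of mature cells outside the cDC1 group the latter was 0.10 [-0.20, 0.39]. Over all cells Il18 was 0.20 higher on the log2 scale, and 0.00 [-0.08, 0.09] without the mature classes.

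Tgfb1 was high outside the mature classes and, in WT, 3.73-fold lower in mature cells with Sirpa than in Ffar2+ cDC2-like cells. The 4 cDC2-like classes lay between 256 and 298 CPM in WT and between 273 and 311 CPM in mutant cells, monocyte-like cells at 304 and 286 CPM, and cDC1-like cells at 170 and 166 CPM. Mature cells with Sirpa had 79.0 and 98.1 CPM (0.31 [0.09, 0.53], and 0.09 [-0.10, 0.28] over the clusters of mature cells outside the cDC1 group), those with cDC1 genes 45.0 and 47.0 CPM and those with neither marker 41.3 and 52.1 CPM. Its whole-library ratio of 0.30 was 0.07 [0.03, 0.10] without the mature classes and 0.05 with equal class shares.

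**Figure D5:**
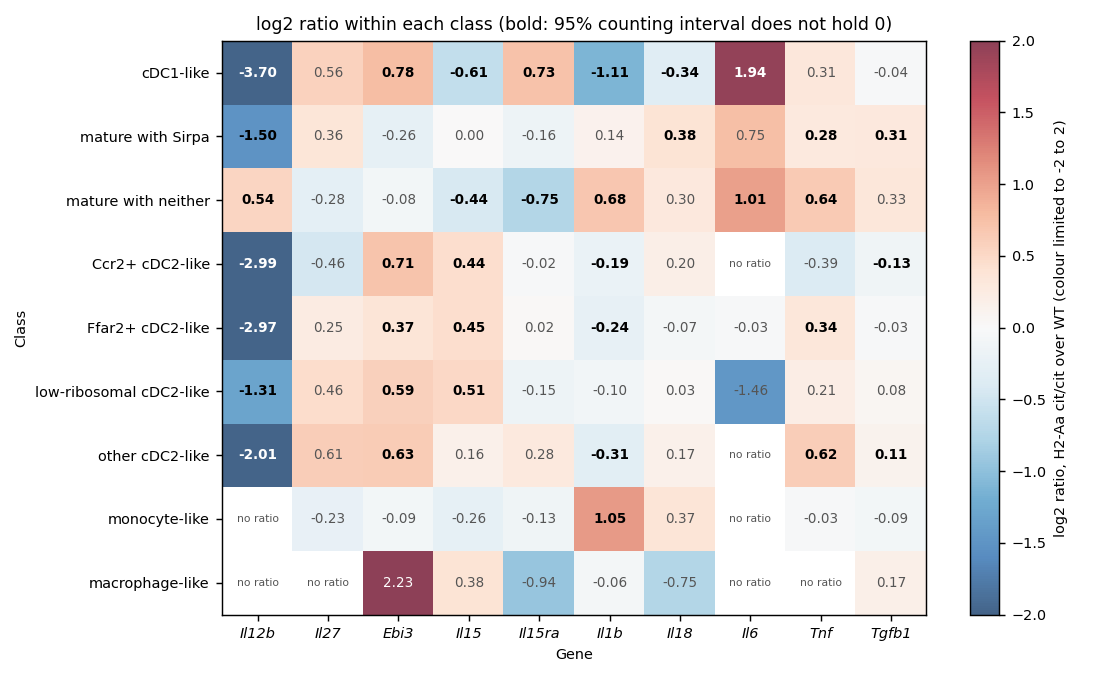
Cells give the log2 ratio of H2-Aa cit/cit to WT CPM of each gene within classes that held at least 50 cells in each library, in bold where the 95% counting interval excludes 0, and with no ratio where a library had 0 UMIs. Il12b is negative in the cDC1-like class and the 4 cDC2-like classes, though its sign turned in 3 of the latter under another way of classing or without the highest cell, and Ebi3 is positive in all 5, with intervals that held 0 in 2 of them by clusters.

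The 2-fold differences among the 10 genes within classes are set here beside the share of all genes past 2-fold. Of genes that reached 50 CPM in a library, 6.48% were more than 2-fold different in cDC1-like cells, 1.1% in Ccr2+, 0.668% in Ffar2+, 0.677% in low-ribosomal and 1.33% in the remaining cDC2-like cells. In none of these did a listed gene at that level pass 2-fold, of 2 or 3 that reached it, too few to set against these shares. In monocyte-like cells Il1b passed, 1 of 3 listed genes at that level beside 3.27% of all genes, though not by marker score (-0.03). In mature cells with Sirpa 0.983% of genes passed 2-fold and so did Il12b, 1 of the 6 listed genes that reached 50 CPM, though not over the clusters (-0.17), while in mature cells with neither marker (2.16% of genes) and over both of these classes (1.34% of genes) none of 6 did. The larger ratios of Il12b in cDC1-like and cDC2-like cells, of Il1b in cDC1-like cells and of Il6 stand at levels below 50 CPM. With a minimum of 10 CPM, Il12b and Il1b passed in cDC1-like cells, 2 of 8 listed genes beside 6.26% of all genes. In the remaining cDC2-like cells Il12b passed, 1 of 8 beside 1.91%. Its ratio there turned from -2.01 to 2.09 without the highest cell of each library. No listed gene passed in Ccr2+, Ffar2+ and low-ribosomal cells. Il12b passed in mature cells with Sirpa (1 of 8 beside 2.22%) and Il6 in those with neither marker (1 of 10 beside 3.98%). Il12b and Il1b passed in monocyte-like cells (2 of 9 beside 12.7%). In proliferating cDC1-like, pDC-like and macrophage-like cells 3 of 6, 1 of 4 and 1 of 6 passed, beside 10.6%, 7.4% and 33.8%.

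Other genes of these routes were taken from 7 lists with 66 genes. In the IL-15 route, Il2rg, the common γ chain, was at 133 and 131 CPM over all cells, Jak1 at 185 and 168 CPM and Stat5b at 161 and 133 CPM, while Il2rb had 111 and 91 UMIs and Il2ra 245 and 136 UMIs, and none of the 4 genes with at least 50 CPM passed 2-fold. In the IL-12 family, Il6ra (172 and 216 CPM), Il6st (192 and 213 CPM) and Il12rb2 (55.8 and 59.1 CPM) were the 3 with at least 50 CPM, and none passed 2-fold. Of the IL-1 and IL-18 genes, the inflammasome adaptor Pycard was at 90.3 and 113 CPM, Casp1 at 34.9 and 50.6 CPM and Il1a at 6 and 7 UMIs, and neither of the 2 with at least 50 CPM passed 2-fold. In the TGF-beta route Nrros, which anchors latent TGF-β on myeloid cells, was at 431 and 575 CPM, and none of 4 passed 2-fold. Of the other cytokines Il16 was at 51.1 and 68.6 CPM, Il10 had 29 and 16 UMIs, and Ifnb1 and Il17a had 0 UMIs.

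Tnfrsf1b, a receptor of TNF, was the 1 gene of these lists with at least 50 CPM that passed 2-fold over all cells, at 147 and 68.3 CPM (-1.11 [-1.16, -1.06]). It was 1 of 3 genes of the TNF route at that level, and 4.38% of all 3953 genes there passed 2-fold in either direction. In single classes, 5 values passed 2-fold: Irf8, a factor of cDC1, in proliferating cells other than cDC1-like ones (36.9 and 76.3 CPM, 1.05 [0.71, 1.40]), Relb of the NF-κB family in proliferating cDC1-like cells (38.8 and 96.1 CPM, 1.31 [0.70, 1.95]), Batf3, also a factor of cDC1, in monocyte-like cells (23.5 and 51.2 CPM, 1.12 [0.14, 2.18]), and in macrophage-like cells Casp1 (6 and 7 UMIs) and Tnfrsf1b (31 and 6 UMIs). The intervals of both macrophage-like ratios held 0. Irf8 and Relb were each 1 of 7 genes tested from the list of regulators in their class, and Batf3 1 of 9. Of all genes with at least 50 CPM, 1.11% passed 2-fold in proliferating cells other than cDC1-like ones and 3.9% in proliferating cDC1-like cells. These shares were 3.27% in monocyte-like and 18.3% in macrophage-like cells. Over all cells, Relb was at 804 and 436 CPM, Rel at 667 and 461 CPM and Irf1 at 197 and 144 CPM, less than 2-fold apart.

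The genes with the class pattern most like each of these were found from log2(CPM + 5) over 24 values, 12 classes in each of 2 libraries, among 6506 genes. The values share libraries and classes, so the Pearson's r is a description and carries no p. For Il15 these were Arhgap31 (0.97), Trafd1 (0.94) and Prpf38b (0.93), and for Il15ra Loxl3 (0.96), Stxbp3 (0.95) and Atxn1 (0.94). For Il12b they were A230098N10Rik (0.92), Zmynd15 (0.91) and Cdkn2b (0.90), and for Tnf Ccr7 (0.95), which is itself a gene of the mature list, M1ap (0.95) and Nmrk1 (0.95). For Il27 they were Myo1g (0.90), Mbp (0.90) and Ccdc50 (0.89), for Il1b Sh3glb1 (0.94), Lst1 (0.93) and Sat1 (0.92), and for Tgfb1 Entpd1 (0.95), Eif4ebp2 (0.95) and 9930111J21Rik2 (0.95). The likeness was weaker for Il18, with Gm13710 (0.81), Acadm (0.80) and Asb2 (0.80), and for Ebi3, with Nrbp1 (0.78), Brd2 (0.69) and Edem1 (0.68).

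Small classes held high levels of some genes. Negr1-rich cells, with at least 2 UMIs each of Negr1 and Sox5, were a class chosen after its genes had been seen. They numbered 97 in WT and 18 in mutant cells and carried genes of several lists at once, with 933 CPM of the mature, 994 CPM of the cDC1 and 2410 CPM of the monocyte list in WT. They had 479 CPM of Il1b, 232 CPM of Il12b, 71.6 CPM of Il27 and 28.0 CPM of Il6 in WT, and without them the whole-library ratio of Il27 was -0.47 in place of -0.62, that of Il6 0.02 in place of -0.24 and that of Il12b -2.20 in place of -2.24. Neutrophil-like cells, 10 in WT and 14 in mutant cells, had 2547 and 498 CPM of Il1b but under 2% of its UMIs in either library. Il12b had 27 UMIs in 4 of 94 WT monocyte-like cells and 0 in 113 mutant cells, where 3 UMIs would be 4.95 CPM. In the monocyte-like cluster it had 0 UMIs in 89 WT and 88 mutant cells, and 5 of the 94 gated WT cells lay in the Negr1-rich cluster.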

How the data were processed

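The authors deposited raw UMI counts of called cells, not normalized, made with Cell Ranger 5.0.1 on mm10/GRCm38 per the submitters' processing notes. Each library pooled 3 mice, and no column ties a cell to its mouse. The 10 genes and all lists were chosen with earlier results of these data known, and gate thresholds, the split of mature cells and the Negr1-rich class were set after seeing the data.

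Most gates needed at least 3 UMIs from 2 genes of a marker list and a minimum of 1000 to 5000 CPM of that list. For the Ccr2+ and Ffar2+ gates the minimum was 750 and 500 CPM. cDC2-like cells needed at least 2 UMIs of a general cDC2 list, and Negr1-rich cells at least 2 UMIs each of Negr1 and Sox5. Low-ribosomal cells had under 8% ribosomal UMIs. Gates of several lineages were passed by 69 WT and 25 mutant cells, of which 40 and 22 were kept apart and the others were Negr1-rich. No doublet caller was run, and no cell was left out. Levels are summed UMIs of a gene over all UMIs of the same class, as CPM. Intervals at 95% are exact Poisson for CPM, Clopper-Pearson for shares and conditional binomial for ratios, and a normal approximation for ratios at equal class shares. Ratios were made only for classes of at least 50 cells in each library. A gene counted as 2-fold different needed at least 50 CPM in either library. Genes named are the 10, the 3 most similar to each with at least 200 UMIs in both libraries, and list genes past 2-fold. Other list genes were named after their values were seen. Clusters (scanpy 1.11.5, igraph 0.11.9) were made without the 10 genes. Sums and intervals came from pandas 2.3.3, scipy 1.17.1 and numpy 2.4.6 under Python 3.11.15, and figures from matplotlib 3.10.9. The ratio and interval code was tested on simulated independent Poisson counts of genes at 50 CPM or more. That test cannot show how the intervals hold for genes whose UMIs lie in few cells.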

Additional observations from a re-analysis of the deposited data

Results flagged for a closer look

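For 6 of the 10 genes the difference between the libraries had opposite signs in 2 classes, with counting intervals on opposite sides of 0. The 2 classes were the most extreme of those shown for each gene. How many of all genes have such a pair was not counted, so 6 of 10 is not read as a trait of these genes. With 1 library per genotype, none of these differences between classes was tested. Each value is a log2 ratio of H2-Aa cit/cit to WT CPM.

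Il12b was at 0.54 in mature cells with neither marker and at -3.70 in cDC1-like cells. The former was -0.06 without the highest cell of each library and the latter -1.96 by clusters. Il15, the ligand of trans-presentation, was at 0.51 in low-ribosomal cDC2-like and -0.61 in cDC1-like cells. Its receptor chain Il15ra went the other way in cDC1-like cells, at 0.73, and was at -0.75 in mature cells with neither marker. Under other processing the former lay between 0.07 and 0.91. Over the clusters of mature cells outside the cDC1 group Il15ra was at 0.11 [-0.04, 0.26]. Il1b was at 1.05 in monocyte-like and -1.11 in cDC1-like cells. The former was -0.03 with cells assigned by their highest marker score and the latter -0.65 [-0.92, -0.38] by clusters. Il18 was at 0.38 in mature cells with Sirpa and -0.34 in cDC1-like cells, and over the clusters of mature cells outside the cDC1 group it was 0.10 [-0.20, 0.39]. Tgfb1 was at 0.31 in mature cells with Sirpa and -0.13 in Ccr2+ cDC2-like cells, the smallest of these contrasts, and by clusters both intervals held 0 (0.09 [-0.10, 0.28] and -0.06 [-0.14, 0.02]).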

How the results depend on the processing

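No paired analysis was possible because each genotype has 1 library. Tried in place of the settings used were another scaling, the mean over cells of each cell's scaled counts, other gates, classes by marker score or by clusters, a mitochondrial limit of 10%, other class weights, other thinning and a minimum of 10 CPM. Leaving out the highest cells, equal class shares over clusters, and the alternatives outside the mature classes were added after seeing the data. Scaling by the median of ratios and leaving out cells over 10% mitochondrial UMIs moved no ratio past its counting interval. Over all cells, the mean of scaled counts per cell gave log2 ratios of -1.85 for Il12b, -0.95 for Il15, -1.28 for Il15ra, 0.00482 for Il18 and -0.11 for Tnf. Il12b was at -2.48 without the highest cell of each library and at -2.73 without the 3 highest. At equal class shares Il12b was at 0.42 with WT shares, -0.58 with H2-Aa cit/cit shares, -0.88 without the 3 highest cells and 0.66 over clusters. Il15 was at -0.095 with H2-Aa cit/cit shares and 0.13 over clusters, Il15ra at 0.17 over clusters, Il1b at -0.092 with WT shares, -0.23 with H2-Aa cit/cit shares and -0.23 over clusters, and Tnf at 0.81, 0.47 and 0.46 with these. Outside the mature classes, Il12b was at -0.65 and Tnf at 0.54 with mature cells taken from clusters, which left cells of the mature gates outside. Without Negr1-rich and several-lineage cells Il12b was there at -1.88, Il27 at 0.15, Il1b at -0.096 and Il6 at 1.15, and without the highest cell as well Il12b was at -1.47, Il27 at 0.076 and Il6 at 1.28. Of 80 ratios within classes 19 had the other sign by clusters, 4 of them from an interval that had excluded 0: Il15 (0.27) and Il15ra (0.11) in mature cells outside the cDC1 group and Il12b in Ccr2+ (1.95) and Ffar2+ cells (1.42). Of intervals that had excluded 0, the sign also turned for Il12b in the remaining cDC2-like cells (2.09) and mature cells with neither marker (-0.063) without the highest cell, in the latter also with stricter gates (-0.062), and for Il1b in monocyte-like cells (-0.032) by marker score. The cause was not tested, and the Ccr2+ and Ffar2+ clusters also held cells that passed the mature gate. With a minimum of 10 CPM the share of genes past 2-fold was 2.22% in mature cells with Sirpa, 3.98% with neither marker, 2.08% over both, 1.56% in low-ribosomal and 12.7% in monocyte-like cells. Of 80 ratios within classes, 58 stayed within their interval by clusters. Of 240 shares of cells, 192 moved without thinning and 120 at 1000 UMIs.

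Counts give RNA, not secreted or surface protein. Mouse to mouse error is not measured, and sorted cells give no count of cells per spleen.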
